A study of Mus musculus with 16 samples.

Results

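The comparison sets mouse neural crest cells primed towards glia against cells primed towards neurons, on 8 of the 16 arrays of the series. Its members are the 4 arrays titled Glia and the 4 titled Autonomic, whose cell type labels read primed to glia and primed to neurons. They were chosen by title alone. The other 8 arrays, 4 of crest stem cells labelled as not primed and 4 of cells primed to mesenchyme, served to estimate the spread and to show where a level lay. All 16 samples are described as primary mouse material from neural crest, kept in neural crest stem cell medium, and the series' design text calls the starting cells migratory. The labels give the same treatment with instructive growth factors for every sample, the unprimed ones included. The sources used here name neither the factors nor the length of exposure, the strain or the embryonic stage. Nor do the labels say whether the 4 replicates came from separate cultures or litters, and the p-values therefore reflect the spread among these samples alone, part of which may be technical. Each array read the RNA of a mixed culture, in which fewer cells of a type and less RNA per cell cannot be told apart.

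Neural crest cells leave the dorsal neural tube, migrate, and give rise to peripheral neurons and glia as well as to mesenchymal derivatives. In culture, neuregulin signalling through Erbb receptors is known to favour Schwann cell fate, whereas bone morphogenetic proteins (BMPs) induce the autonomic determination genes. Glial commitment is read from Sox10, Erbb3 and Fabp7 and later from myelin genes. Autonomic commitment is read from the Phox2 and Hand factors and the enzymes of noradrenaline synthesis.

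Levels below are log2 of the deposited linear intensity, for 18194 genes with 1 probe set each, and a difference is always the glia-primed mean minus the neuron-primed mean. Array medians lay between 3.05 and 3.12 in the 8 arrays. The neuron-primed replicate 1 stood apart from its group before any gene was compared. On the first principal component of all 16 arrays, with 14.4% of the variance, the glia-primed arrays scored 19.4 to 46.5 and the neuron-primed replicates 2 to 4 scored 28.9 to 57.3. The neuron-primed replicate 1 scored -39.7, within the -49.6 to -21.2 of the unprimed arrays. Across genes it correlated at 0.929 to 0.943 with the unprimed arrays and at 0.899 to 0.927 with its own group. The neuron-primed replicates 2 to 4 correlated at 0.907 to 0.958 with the glia-primed arrays. Other arrays stood apart on the second component, with 9.1% of the variance. There neuron-primed replicate 4 scored -78.5 and glia-primed replicate 4 scored 54.8, and every other array of the series lay between -23.2 and 13.8. The actin control ratio, the 3′ minus the 5′ probe set in log2 units, was -0.24 to -0.07 in glia-primed and -0.92 to -0.29 in neuron-primed arrays, without overlap. The Gapdh ratio overlapped, at 2.44 to 3.33 and 2.53 to 3.10. The part of these ratios in the results was not tested beyond a fit with the Gapdh ratio as a covariate, chosen after seeing the data, which kept both called genes. No fit included the actin ratio, the one without overlap, so the part of that ratio was not tested.

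**Figure D1:**
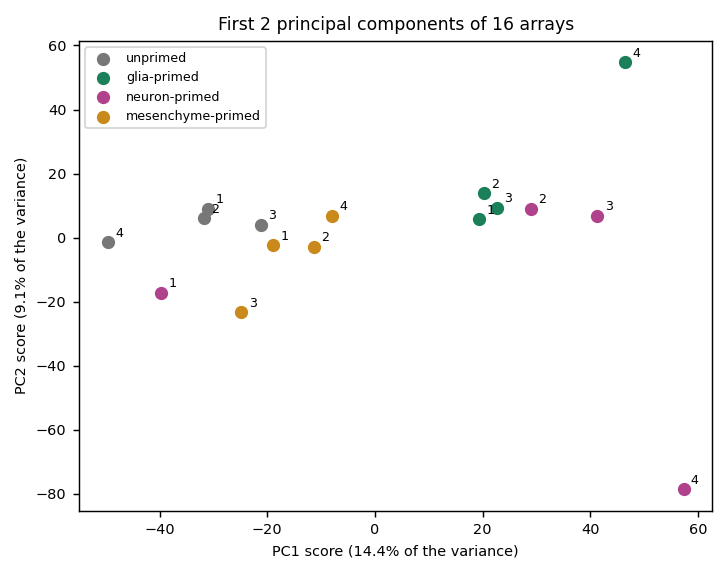
Scores of the 16 arrays on the first 2 principal components of log2 intensity, coloured by group and numbered by replicate. Glia-primed arrays (19.4 to 46.5 on the first component) and neuron-primed replicates 2 to 4 (28.9 to 57.3) lie on the right, and neuron-primed replicate 1 lies at -39.7 among the unprimed arrays. On the second component neuron-primed replicate 4 (-78.5) and glia-primed replicate 4 (54.8) lie farthest out.

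The labelled fates were checked against defining markers. In the neuron-primed arrays the autonomic determination factors Phox2a, Hand2 and Gata3 lay at 1.95 to 2.49, 3.75 to 4.33 and 1.92 to 2.76. The glia-primed ranges of 1.49 to 2.77, 3.62 to 4.26 and 1.51 to 3.58 overlapped them. Tyrosine hydroxylase (Th), the rate-limiting enzyme of catecholamine synthesis, lay at 2.18 to 3.86 in neuron-primed and 2.09 to 3.36 in glia-primed arrays. Dopamine beta-hydroxylase (Dbh) lay at 3.62 to 4.92 and 3.62 to 4.06. These 5 autonomic markers overlapped between the groups, and the neuron-primed arrays are named here by their label only. On the glial side, S100b (3.31 to 3.66), Gfap (2.77 to 3.07) and Mbp (2.54 to 3.29) in the glia-primed arrays overlapped the neuron-primed 2.97 to 3.71, 2.36 to 2.90 and 2.62 to 3.10. The early glial genes Sox10 and Erbb3 gave strong signals in the glia-primed arrays, at 6.80 to 8.39 and 9.20 to 10.03. In the neuron-primed replicates 2 to 4 they lay at 8.07 to 8.27 and 8.12 to 9.47, overlapping the glia-primed ranges, and in the neuron-primed replicate 1 at 4.30 and 6.04. The mesenchyme-primed arrays had 8.33 to 9.63 and 9.38 to 10.01, and the unprimed arrays 6.44 to 8.74 and 7.78 to 8.89. These markers thus did not set the glia-primed arrays apart, and they too are named by their label only.

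Between glia-primed and neuron-primed cells, 2 genes differed at an adjusted p under 0.05 by limma, 0.011% of the 18194 tested. Mef2c was higher in glia-primed cells and Vat1l was higher in neuron-primed cells, each 0.0055% of the genes tested. The median difference over all genes was -0.01, and 48.6% of genes had the higher mean in glia-primed cells. Differences of 2-fold or more numbered 445 towards glia and 564 towards neurons, and the median standard error of a gene's difference was 0.302, with a median 95% interval of 0.646 on either side. An unadjusted p under 0.05 was reached by 1135 genes (6.24%), of which 518 (2.85%) had the higher mean in glia-primed cells and 617 (3.39%) in neuron-primed cells. The 4 arrays of one group lay wholly above the 4 of the other for 539 genes (2.96%), 247 of them (1.36%) towards glia and 292 (1.6%) towards neurons.

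**Figure D2:**
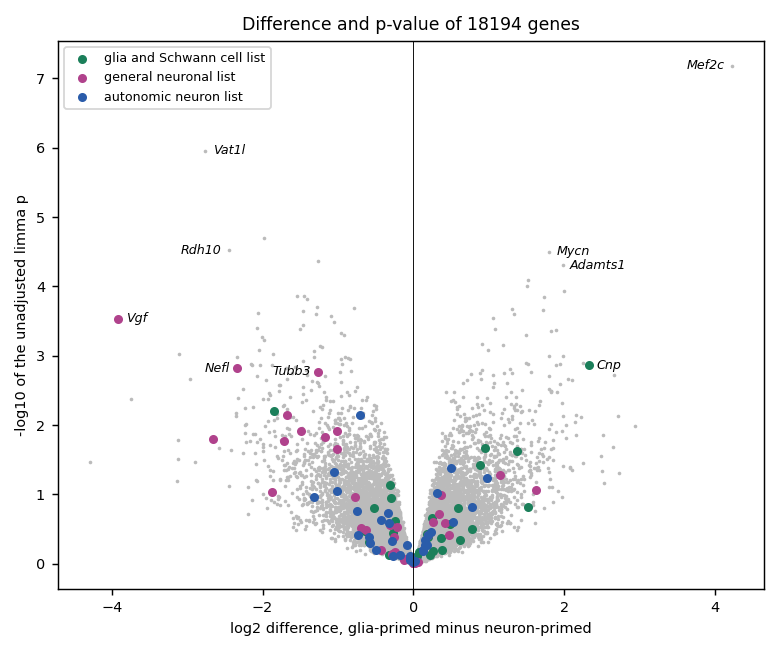
Each grey point is 1 of 18194 genes, placed by its log2 difference (glia-primed minus neuron-primed, 4 arrays each) and by minus log10 of its unadjusted limma p; coloured points belong to the glia and Schwann cell, general neuronal and autonomic lists. Mef2c at 4.23 and Vat1l at -2.76 have the lowest p, and most coloured points toward the left edge are general neuronal genes.

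Mef2c encodes a MADS-box transcription factor of muscle, neurons and neural crest. Its level was 6.71, 8.31, 8.21 and 6.53 in glia-primed arrays 1 to 4 and 3.49, 3.06, 3.19 and 3.09 in neuron-primed arrays 1 to 4. All 4 neuron-primed arrays lay far below the lowest glia-primed array, and the neuron-primed replicate 1 lay with its group. The difference was 4.23 (SE 0.42, adjusted p = 0.00119). The neuron-primed values lay at about the array medians, and signal over background is unknown, so the size is rough. It was 2.93 when 16 was added before taking log2 and 2.71 over the mean of all probe sets, called in both. The glia-primed mean of 7.44 ± 0.95 (SD, n = 4) stood near the unprimed 7.20 ± 0.68 and the mesenchyme-primed 7.84 ± 0.41. Against unprimed cells, Mef2c fell by 3.98 in neuron-primed cells (adjusted p = 0.000506), while the glia-primed difference was 0.25 (adjusted p = 0.904). Over all genes, 0.434% were called between neuron-primed and unprimed cells and 0.511% between glia-primed and unprimed cells, and these comparisons share their arrays with the one between fates. Of the other Mef2c probe sets, each with its own scale, 4 gave differences of 3.71, 3.03, 2.08 and 0.50, all in the same direction.

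Vat1l encodes a relative of the vesicle protein VAT-1. Its level was 4.12, 5.30, 3.71 and 4.84 in the glia-primed arrays and 7.63, 7.41, 6.99 and 6.98 in the neuron-primed arrays. The groups did not overlap, and the neuron-primed replicate 1 was the highest of all. The difference was -2.76 (SE 0.34, adjusted p = 0.0101), a 6.78-fold higher mean in neuron-primed cells, from the gene's only probe set. The unprimed mean was 5.46 ± 0.39 and the mesenchyme-primed mean 4.60 ± 0.52 (SD, n = 4). Against unprimed cells Vat1l rose by 1.79 in neuron-primed cells (adjusted p = 0.0333), and its glia-primed difference was -0.97 (adjusted p = 0.322).

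Both genes were called in each of the 8 fits that left out 1 of the compared arrays, with an adjusted p of at most 0.0094 for Mef2c and 0.0484 for Vat1l. Neither was called when only the 8 compared arrays were fitted (adjusted p = 0.159 for Mef2c and 0.303 for Vat1l), where the sizes were the same and 869 genes had an unadjusted p under 0.05. That fit has fewer residual degrees of freedom. The call therefore needs the spread estimated with the unprimed and mesenchyme-primed arrays.

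The start regions of these 2 genes are shown because they carry the called differences. Each line gives the 150 bases before an annotated transcription start, from RefSeq on build GRCm38.p6, plus strand. Capitals mark an E-box, CANNTG on either strand, the binding motif of basic helix-loop-helix factors. Mef2c has 3 listed starts, at chr13:83503884-83504033, chr13:83523506-83523655 and chr13:83573457-83573606, and Vat1l has 1, at chr8:114205490-114205639.
Mef2c start 1: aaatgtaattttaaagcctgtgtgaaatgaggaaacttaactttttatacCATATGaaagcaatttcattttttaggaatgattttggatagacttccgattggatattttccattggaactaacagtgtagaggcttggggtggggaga
Mef2c start 2: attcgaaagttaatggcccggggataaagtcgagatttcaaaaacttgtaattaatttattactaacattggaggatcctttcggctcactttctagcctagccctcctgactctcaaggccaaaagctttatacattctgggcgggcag
Mef2c start 3: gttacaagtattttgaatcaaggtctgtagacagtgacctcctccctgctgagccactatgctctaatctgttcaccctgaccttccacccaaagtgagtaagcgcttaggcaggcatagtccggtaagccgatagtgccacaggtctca
Vat1l: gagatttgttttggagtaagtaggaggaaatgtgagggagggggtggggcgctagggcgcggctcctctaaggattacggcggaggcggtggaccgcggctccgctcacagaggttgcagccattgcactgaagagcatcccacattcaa
An E-box occurs in 47.7% of 32817 mouse promoter windows of this length, and here only the window of Mef2c start 1 held 1. The letters TATAAA, on either strand and in 7.6% of all windows, occurred once each before Mef2c starts 1 and 2. The Vat1l window had 58.7% G and C, against 34.0%, 42.7% and 50% for the Mef2c windows. These matches describe the letters only, and the arrays do not tell which start was in use.

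**Figure D3:**
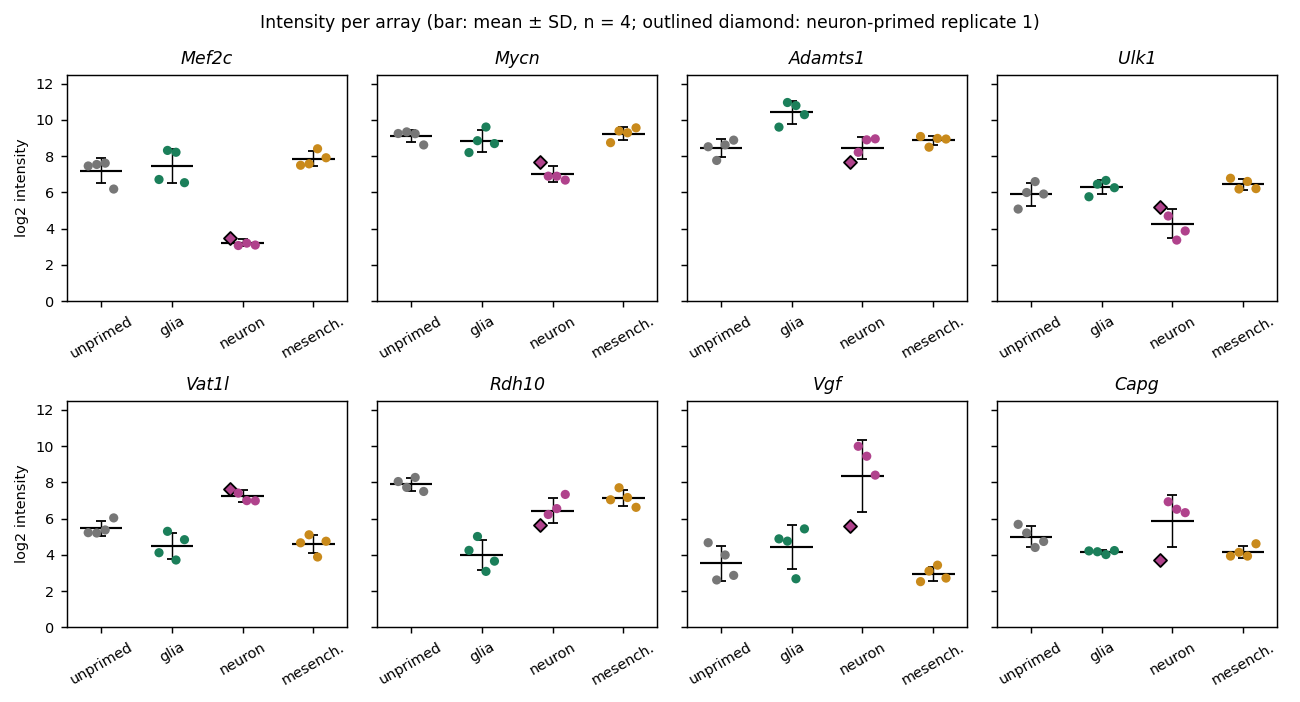
Log2 intensity of 8 genes in each array of the 4 groups; horizontal bars are means, error bars SD (n = 4), and the outlined diamond is neuron-primed replicate 1. Mef2c and Vat1l separate the 8 glia-primed and neuron-primed arrays, whereas for Vgf and Capg the diamond, at 5.57 and 3.74, lies apart from the other neuron-primed arrays.

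Counting the 2 called genes, 51 genes towards glia and 53 towards neurons had non-overlapping arrays, a difference of at least 1 and a higher group mean of at least 6. Apart from those 2, none of the genes described next passed the adjusted threshold in all 16 arrays. The lowest adjusted p towards glia belonged to Mycn, a MYC family transcription factor of proliferating progenitors. It lay at 8.20, 8.85, 9.60 and 8.69 in glia-primed and at 7.68, 6.89, 6.89 and 6.67 in neuron-primed arrays, a difference of 1.80 (SE 0.30, adjusted p = 0.116). As for Mef2c, the glia-primed mean of 8.83 stood near the unprimed 9.11, and Mycn fell by 2.07 from unprimed to neuron-primed cells (adjusted p = 0.00719). Mycn passed the threshold between fates without glia-primed replicate 1 (2.01, adjusted p = 0.0484) and without neuron-primed replicate 1 (2.02, adjusted p = 0.0367). Its other, dimmer probe sets gave 1.2 and -0.28.

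Adamts1, a secreted metalloproteinase that cleaves matrix proteoglycans, had the opposite relation to unprimed cells. It lay at 9.60, 10.96, 10.79 and 10.29 in glia-primed arrays against 7.66, 8.21, 8.89 and 8.95 in neuron-primed arrays, with no overlap. The difference was 1.98 (SE 0.35, adjusted p = 0.129), and 2.25 (adjusted p = 0.0484) without glia-primed replicate 1. Adamts1 rose by 1.96 from unprimed to glia-primed cells (adjusted p = 0.0296), and its neuron-primed difference from unprimed was -0.01 (adjusted p = 0.996). The adhesion receptor Adgrl2 (latrophilin) lay at 7.39 to 7.96 in glia-primed and 5.46 to 6.98 in neuron-primed arrays, a difference of 1.52 (adjusted p = 0.183). It passed only without neuron-primed replicate 2, at 1.77 (adjusted p = 0.0418). Ptprm, a receptor tyrosine phosphatase of cell contacts, lay at 7.64, 7.25, 6.64 and 5.71 against 5.0 to 5.51. Its difference was 1.50 (adjusted p = 0.264), and 1.86 (adjusted p = 0.0459) without glia-primed replicate 4.

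Other genes of this set towards glia had various functions. Ulk1, the kinase that starts autophagy, lay at 5.75 to 6.65 in glia-primed and 3.36 to 5.19 in neuron-primed arrays (difference 2.00, 95% interval 1.18 to 2.82, adjusted p = 0.198). Virma, a scaffold of the RNA adenosine methyltransferase complex, lay at 7.96 to 8.32 against 5.95 to 7.05 (difference 1.51, adjusted p = 0.198). Further ones named were the tetraspanin Tspan6 (1.06), Dip2a (1.89), the snoRNA host Snhg4 (1.19) and the ubiquitin ligase Herc4 (1.79), with adjusted p between 0.214 and 0.370. A dimmer probe set of Ulk1 gave -0.15, and those of Herc4 gave -0.47, 0.28 and 0.16. The other, dimmer probe set of Dip2a gave 0.04.

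Towards neurons, the lowest adjusted p after Vat1l among the described genes belonged to Rdh10, the retinol dehydrogenase that starts retinoic acid synthesis. It lay at 4.25, 5.01, 3.09 and 3.65 in glia-primed arrays and at 5.65, 6.23, 6.55 and 7.33 in neuron-primed arrays. The difference was -2.44 (SE 0.41, adjusted p = 0.116), and it passed the threshold without glia-primed replicate 2 (-2.78, adjusted p = 0.0366) and without neuron-primed replicate 1 (-2.70, adjusted p = 0.0427). Both primed means, 4.00 and 6.44, lay under the unprimed 7.88, and Rdh10 fell by 3.88 from unprimed to glia-primed cells (adjusted p = 0.000311). The gene's other, dimmer probe set gave 0.90, so the direction rests on 1 probe set, of a kind that can match several transcripts. Zfp36l1, which speeds the decay of AU-rich mRNAs, lay at 8.23 to 9.39 against 9.60 to 10.56 (difference -1.28, adjusted p = 0.207). Without glia-primed replicate 1 it passed at -1.54 (adjusted p = 0.0484). It fell by 1.26 from unprimed to glia-primed cells (adjusted p = 0.0479), and its neuron-primed mean of 9.92 equalled the unprimed 9.90 within the spread.

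Further genes with non-overlapping arrays towards neurons had varied functions as well. Ganab, a glucosidase of the endoplasmic reticulum, lay at 4.87 to 6.01 in glia-primed and 6.44 to 7.21 in neuron-primed arrays (difference -1.45, adjusted p = 0.198). Col18a1, a collagen of basement membranes, lay at 4.94 to 5.41 against 5.95 to 7.25 (difference -1.46, adjusted p = 0.207). Col18a1 rose by 1.58 from unprimed to neuron-primed cells (adjusted p = 0.0327). Others were Chmp4b, a subunit of the membrane-cutting ESCRT-III complex (-1.10), the phosphatase methyltransferase Lcmt1 (-1.54) and the oxidation resistance gene Oxr1 (-1.41). With them stood Nsmce3 (-2.07) of a DNA repair complex, Znrd2 (-1.29) and Gtf2h3 (-1.47), a subunit of transcription factor TFIIH. Their adjusted p ran from 0.198 to 0.240. Other probe sets of Oxr1 gave 0.06 and -0.15, and the other one of Col18a1 gave -0.08. The other, dimmer probe set of Ganab gave -0.1.

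**Figure D4:**
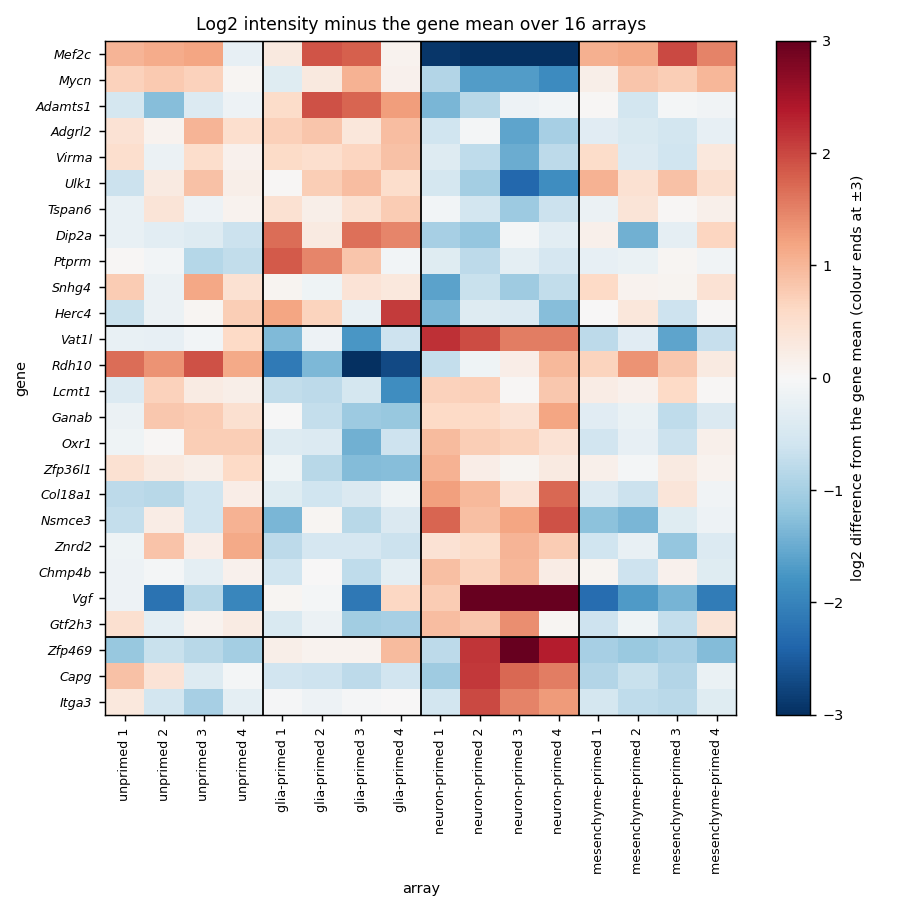
Log2 intensity minus the gene's mean over 16 arrays, by array (columns, grouped by label) and gene (rows); the upper block holds genes with the higher mean in glia-primed cells, the middle block those with the higher mean in neuron-primed cells, and the lowest block Zfp469, Capg and Itga3. Colour ends at 3 above or below the mean. Mef2c is darkest blue in the 4 neuron-primed arrays, and the lowest block is reddest in neuron-primed replicates 2 to 4.

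Vgf, the precursor of neuropeptides induced by nerve growth factor, was the general neuronal gene with the largest difference. It lay at 4.88, 4.76, 2.68 and 5.43 in glia-primed arrays, and at 5.57, 9.99, 9.44 and 8.40 in neuron-primed arrays. The neuron-primed replicate 1 exceeded the highest glia-primed array by little, and replicates 2 to 4 exceeded it by about 3 log2 units or more. The difference was -3.91 (SE 0.83, adjusted p = 0.214). Without neuron-primed replicate 1 it was -4.84 (adjusted p = 0.0142), 1 of 7 genes called in that fit (0.0385% of those tested). Vgf rose by 4.82 from unprimed to neuron-primed cells over all 4 replicates (adjusted p = 0.0197).

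The fit without neuron-primed replicate 1 called 2 genes towards glia (0.011%), Mef2c and Mycn, and 5 towards neurons (0.0275%), Vat1l, Rdh10, Vgf, Zfp469 and Capg. In that fit 1221 genes (6.71%) had an unadjusted p under 0.05, 2.87% of all genes towards glia and 3.84% towards neurons. Capg, which caps actin filament ends, lay at 4.01 to 4.24 in the glia-primed arrays and at 3.74, 6.93, 6.52 and 6.33 in the neuron-primed arrays. Its difference was -2.43 without that replicate (adjusted p = 0.00387) and -1.72 with it (adjusted p = 0.584). The zinc finger gene Zfp469 lay at 4.01, 3.94, 3.94 and 4.77 against 3.04, 5.99, 6.83 and 6.18, and gave -2.16 without the replicate (adjusted p = 0.00387) and -1.34 with it (adjusted p = 0.779). In both, replicate 1 was lower than every glia-primed array. Itga3, a laminin-binding integrin subunit, had the same order of arrays, 5.20 against 7.04 to 7.74 within the neuron-primed group, and did not pass (-1.65 without the replicate, adjusted p = 0.051). How far replicate 1 followed its group was also measured on genes picked without it. Of 71 genes with an unadjusted p under 0.001 in the fit without it, 26 (36.6%) lay nearer to their own group's mean in replicate 1, against 47.1% over all genes. For the other 7 arrays, each held out in the same way, the share was 53.4% to 65.2%, against 46.0% to 50.1% over all genes.

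The genes with the widest gap between neuron-primed replicate 1 and the rest of its group were varied. Those low in replicate 1 included Fgd5, an exchange factor for Cdc42 (2.89 against 7.95 to 8.71), Rapgef3, the cAMP-gated exchange factor Epac (1.40 against 7.49 to 8.27), and the mRNA decay factor Zfp36 (2.40 against 7.50 to 7.99). The fibrillar collagen gene Col3a1 (2.73 against 7.02 to 7.84), Ccdc86 (2.48 against 7.06 to 7.80) and the fatty acid elongation enzyme Hacd1 (2.20 against 6.47 to 9.02) were low there too. The long non-coding RNA Miat was high, at 11.94 against 6.08 to 7.04. In the glia-primed arrays Fgd5 lay at 7.49 to 8.19, so the differences of these genes depend on replicate 1. Fgd5 gave 0.78 with it and -0.61 without it, and Zfp36 gave 0.48 and -0.85, neither called.

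Of 31 measured glia and Schwann cell genes, 4 had an unadjusted p under 0.05 towards glia and 1 towards neurons, against 2.85% and 3.39% of all genes, and none was called. The list's median difference was 0.18 with all arrays and 0.03 without neuron-primed replicate 1, beside -0.01 and -0.02 over all genes. Without that replicate 1 member had an unadjusted p under 0.05 towards glia and 1 towards neurons. Erbb3, the neuregulin receptor subunit, lay at 9.20, 10.03, 9.48 and 9.27 in glia-primed and 6.04, 8.87, 9.47 and 8.12 in neuron-primed arrays. Its difference of 1.37 (95% interval 0.21 to 2.53, adjusted p = 0.753) was 0.67 without neuron-primed replicate 1. Ngfr, the low-affinity neurotrophin receptor of crest stem cells, gave 0.88 (adjusted p = 0.785) on its brightest probe set, and -0.30 and -0.25 on the others. Both primed means of Ngfr were below the unprimed 9.07, and it fell by 1.87 in glia-primed and by 2.75 in neuron-primed cells against unprimed (adjusted p = 0.0479 and 0.00554). The myelin gene Cnp gave 2.33 (6.54 to 8.21 against 4.28 to 6.08, adjusted p = 0.379) on its brightest probe set, and -0.29 and -0.22 on the others. The cadherin Cdh19 of Schwann cell precursors gave 0.95 (2.63 to 4.44 against 2.28 to 2.75), and Gas7 gave -1.85 towards neurons. Sox10, the crest and glial transcription factor, gave 0.37 (95% interval -1.28 to 2.03) and -0.60 without neuron-primed replicate 1. Fabp7, a glial fatty acid binding protein, lay at 6.58 to 7.66 in glia-primed arrays and at 10.45, 7.42, 6.67 and 5.62 in neuron-primed arrays.

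Among 34 autonomic neuron genes, 1 had an unadjusted p under 0.05 towards glia and 2 towards neurons, against 2.85% and 3.39% of all genes. None was called, and the median difference was -0.05. Only 4 of the 34 had a mean over 16 arrays of 6 or more. Those towards neurons were the neuropeptide genes Cartpt, at 1.72 to 2.65 against 2.60 to 3.18, and Npy, at 3.20 to 3.73 against 6.38, 3.48, 4.01 and 4.14. Npy was highest in neuron-primed replicate 1, and its difference of -1.05 became -0.43 without it. Peripherin (Prph), a neurofilament of peripheral neurons, gave 0.50 towards glia, and the vesicular acetylcholine transporter Slc18a3 gave 0.97 (unadjusted p = 0.0591), with 3.06, 4.98, 3.63 and 5.54 in glia-primed arrays. Tfap2b, a factor of sympathetic neurons and crest, lay at 7.08 to 7.52 in glia-primed arrays and 7.02 to 7.24 in neuron-primed replicates 2 to 4, and at 4.74 in replicate 1. Sox11, bright in every array, gave 0.16 (95% interval -0.39 to 0.71).

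Of 36 measured general neuronal genes, 10 had an unadjusted p under 0.05 towards neurons and none towards glia, and 5 had arrays wholly higher in neuron-primed cells against 1 in glia-primed cells, none called. Over all genes the shares under that p were 3.39% towards neurons and 2.85% towards glia, and those without overlap 1.6% and 1.36%. The mean level over the list was 4.55 to 4.99 in the glia-primed, 5.21 to 5.65 in the neuron-primed and 4.81 to 5.20 in the unprimed arrays. In the mesenchyme-primed arrays it was 4.59 to 5.22, and their replicate 3 lay within the neuron-primed range. Glia-primed and neuron-primed arrays did not overlap in this mean, and neuron-primed replicate 1 was the highest. The median difference was -0.25, and 0.02 without that replicate, when 11 members had an unadjusted p under 0.05 towards neurons and 2 towards glia. Single members were thus far apart in replicates 2 to 4, while the middle of the list was not. The list was chosen with earlier results of these data known, and it includes Vgf. Its counts and means are therefore no separate evidence.

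Besides Vgf, the members of this list towards neurons were the following. Neurofilament light chain (Nefl) lay at 8.05, 7.08, 5.28 and 7.71 in glia-primed and 8.49, 10.34, 9.92 and 8.72 in neuron-primed arrays, a difference of -2.34 (SE 0.60, adjusted p = 0.401). The groups did not overlap, although glia-primed replicate 1 came near neuron-primed replicate 1. Nefm, the medium chain, gave -1.68, with 4.30 to 5.65 against 5.53, 7.89, 7.84 and 5.56. The neuronal tubulin Tubb3 lay at 8.40, 9.45, 9.45 and 8.42 against 9.92, 10.59, 10.36 and 9.90, a difference of -1.26 (SE 0.33, adjusted p = 0.403) without overlap. Stmn2, a microtubule regulator of growing axons, lay at 3.88 to 4.98 against 5.85 to 6.23 (-1.50, adjusted p = 0.692). Gap43 of growth cones gave -1.17, the kinesin Kif5c -1.01, the RNA-binding protein Celf4 -2.66 and the granule protein Scg2 -1.02. Scg2 was dim, with means of 1.63 in glia-primed and 2.65 in neuron-primed cells. Dimmer probe sets of Celf4 gave -0.47 and -0.30, and those of Kif5c gave 0.09, -0.54 and -0.27. The adhesion molecule Ncam1 gave -1.72, but its 6 other probe sets gave -0.06 to 0.85. All 10 were in the range of 2-fold or more, with adjusted p between 0.214 and 0.751.

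Of 30 measured crest progenitor genes, 21 had the higher mean in glia-primed cells, beside 48.6% of all genes. An unadjusted p under 0.05 was found for 5 towards glia and 1 towards neurons, against 2.85% and 3.39% of all genes. The list held 1 called gene, Mef2c, beside 0.0055% of all genes called towards glia. The list's mean level was 5.82 to 6.11 in glia-primed and 5.51 to 5.64 in neuron-primed arrays, without overlap, beside 6.06 to 6.42 in unprimed arrays. Its median difference was 0.36, and 0.27 without neuron-primed replicate 1. This list was chosen with earlier results of these data known, and it includes Mef2c and Mycn. Its call, counts and means are therefore no separate evidence. The lack of overlap in the list mean rests on Mef2c and Mycn. Besides Mef2c, Mycn and Ngfr, the members towards glia were Sox5, a factor of migrating crest (5.09 to 6.63 against 4.65 to 5.30, difference 0.96), and the LIM-only gene Lmo4 (1.33). The member towards neurons was Nr6a1, a nuclear receptor of early embryonic cells. Nr6a1 lay at 7.57, 4.62, 6.14 and 6.42 against 6.63, 8.46, 8.04 and 7.84, with a difference of -1.56 (adjusted p = 0.629). It fell by 3.25 from unprimed to glia-primed cells (adjusted p = 0.0114), from an unprimed mean of 9.44 ± 0.44 (SD, n = 4).

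**Figure D5:**
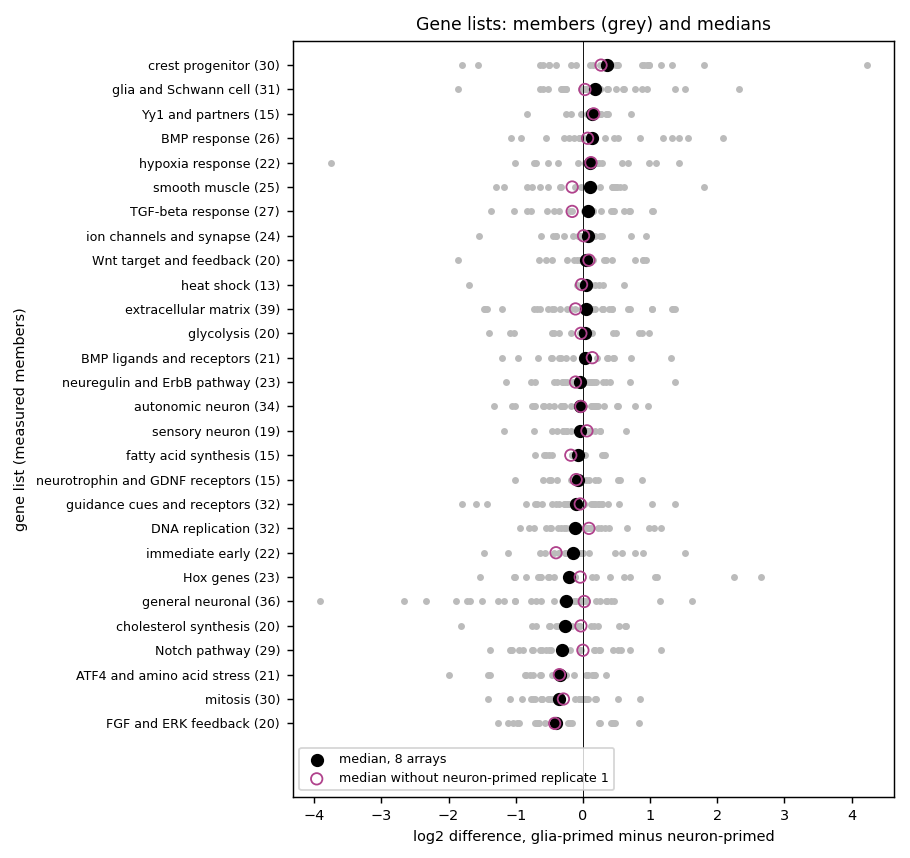
For each of 28 gene lists, grey points are the members' log2 differences (glia-primed minus neuron-primed), the black point is their median over all 8 arrays and the open circle the median without neuron-primed replicate 1. Medians run from 0.36 for crest progenitor genes to -0.40 for FGF and ERK feedback genes, and the open circle of the general neuronal list lies at 0.02 against -0.25.

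No member of the BMP lists was called. Of 26 BMP response genes, 5 had an unadjusted p under 0.05 towards glia and none towards neurons, against 2.85% and 3.39% of all genes, with a list mean of 4.43 to 4.62 in glia-primed and 4.00 to 4.41 in neuron-primed arrays. The median difference was 0.13, and without neuron-primed replicate 1 it was 0.07, with 1 member under an unadjusted p of 0.05. Bambi, a decoy receptor induced by BMPs, lay at 5.68, 4.65, 6.12 and 4.89 in glia-primed and 3.17, 4.45, 2.81 and 4.67 in neuron-primed arrays (difference 1.56, adjusted p = 0.403). The homeobox gene Dlx2 lay at 8.78 to 10.34 against 5.10, 7.72, 8.30 and 9.17 (difference 2.08, and 1.25 without neuron-primed replicate 1), and rose by 4.57 from unprimed to glia-primed cells (adjusted p = 0.0452). Dlx1 (1.19), Msx2 (0.85) and the secreted BMP modulator Bmper (1.43) were the others. Id4, which binds and blocks E proteins, gave -0.56 (95% interval -1.60 to 0.49). Among 21 BMP ligands, receptors and antagonists, the antagonist Fst gave 1.31 towards glia and Twsg1 gave -0.97 towards neurons, with adjusted p of 0.778 and 0.633.

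Nor was a member of the Wnt, FGF or Notch lists called. The counts below stand beside 2.85% of all genes under an unadjusted p of 0.05 towards glia and 3.39% towards neurons. Without neuron-primed replicate 1 these shares were 2.87% and 3.84%. Axin2, a feedback inhibitor and common readout of Wnt signalling, lay at 3.29, 4.87, 3.80 and 5.20 in glia-primed and 6.78, 6.40, 5.46 and 5.99 in neuron-primed arrays. The groups did not overlap, and the difference was -1.86 (SE 0.45, adjusted p = 0.370). A dimmer probe set of Axin2 gave -0.17. Axin2 fell by 2.25 from unprimed to glia-primed cells (adjusted p = 0.0447), while its neuron-primed difference was -0.38. It was the only 1 of 20 Wnt target genes with an unadjusted p under 0.05, and the list's median was 0.05. The 20 FGF and ERK feedback genes had the lowest median of the lists, -0.40, and -0.42 without neuron-primed replicate 1, with 3 towards neurons and none towards glia. These were the receptor Fgfr1 (-0.97), Spred3 (-1.03) and Fosl1 (-1.12), none with an adjusted p under 0.737, and Fosl1 was high in neuron-primed replicate 2 alone. Of 29 Notch pathway genes, 1 had an unadjusted p under 0.05 in each direction. Hes7, an oscillating repressor of the segmentation clock, gave 0.45 at 2.35 to 3.22 against 2.04 to 2.37, and the receptor Notch1 gave -1.06, with 7.54 in neuron-primed replicate 1. That list's median moved from -0.31 to 0.00 without this replicate. Of 22 immediate early genes, 2 were under an unadjusted p of 0.05 towards neurons, Fosl1 and Klf4 (-1.47). Among 27 TGF-beta response genes, 1 was under that p in each direction, and 2 towards neurons and none towards glia without neuron-primed replicate 1, when the median moved from 0.07 to -0.16. Bhlhe40, a repressor of the basic helix-loop-helix family, gave -1.02 towards neurons (3.28 to 3.90 against 3.76 to 5.69). Spsb1 lay at 8.27 to 9.11 against 7.29 to 8.39 (difference 1.04, adjusted p = 0.778), and it rose against unprimed cells in both fates, by 5.0 and 3.96 (adjusted p = 0.000142 and 0.000787).

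Guidance genes were represented by ephrins, membrane ligands of Eph receptors. Of 32 measured guidance genes, 2 had an unadjusted p under 0.05 towards glia and 3 towards neurons, against 2.85% and 3.39% of all genes. Efnb2 lay at 7.80, 7.61, 7.28 and 7.60 in glia-primed and 8.35, 9.00, 7.93 and 8.38 in neuron-primed arrays, without overlap (difference -0.84, SE 0.21, adjusted p = 0.377). Its other probe sets, dimmer ones, gave 0.26, -0.40 and -0.33. It fell by 1.54 from unprimed to glia-primed cells (adjusted p = 0.00392). Efnb1 lay at 4.95 to 5.50 against 5.57 to 7.49 (difference -1.42, adjusted p = 0.551), and its 2 other probe sets gave -0.78 and -1.05.

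Smooth muscle and matrix genes pointed both ways. Myl9, a myosin light chain of smooth muscle, lay at 9.33 to 10.64 in glia-primed and 7.33, 9.47, 8.85 and 7.51 in neuron-primed arrays (difference 1.80, adjusted p = 0.497). The fibronectin receptor subunit Itga5 gave -1.30, with 5.83 in neuron-primed replicate 1 against 7.58 to 8.41 in the others. Over 25 smooth muscle genes the median moved from 0.11 to -0.16 without that replicate. Of 39 matrix genes, 2 had an unadjusted p under 0.05 in each direction, against 2.85% of all genes towards glia and 3.39% towards neurons. The laminin chain Lamc1 lay at 7.16 to 7.69 against 7.49, 8.83, 7.89 and 10.17 (-1.20), while its other probe set gave 0.85. Col1a2, a fibrillar collagen chain, gave 0.70 (unadjusted p = 0.0866), and 0.35 without neuron-primed replicate 1.

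No metabolic or cell cycle gene of the lists was called between the fates. Of 20 cholesterol synthesis genes, 3 had an unadjusted p under 0.05 towards neurons and none towards glia, against 3.39% and 2.85% of all genes. The median was -0.27, or -0.03 without neuron-primed replicate 1, when 1 member was under that p in each direction. Cyp51, the sterol demethylase, lay at 8.22 to 8.97 in glia-primed and 8.59 to 9.94 in neuron-primed arrays, both under the unprimed 10.98 ± 0.10 (SD, n = 4). It fell against unprimed cells in both fates, by 2.49 and 1.78 (adjusted p = 0.000288 and 0.00677), and the difference between fates was -0.70 (adjusted p = 0.715), and -0.46 without that replicate. The sterol isomerase Ebp gave -1.82 (adjusted p = 0.613). The glucose transporter Slc2a3 gave -1.41, the only 1 of 20 glycolysis genes under an unadjusted p of 0.05. Adm, the hypoxia-induced peptide adrenomedullin, gave -3.74, with 4.11, 10.08, 4.30 and 7.32 in glia-primed and 9.61, 11.84, 10.87 and 8.47 in neuron-primed arrays. The glia-primed arrays of Adm spread widely (SD 2.83), and its other, dim probe set gave 0.23. Of 22 hypoxia response genes, 1 had an unadjusted p under 0.05 in each direction, Adm towards neurons and the dim Car9 (0.67) towards glia. The mean was higher in glia-primed cells for 15 of them and in neuron-primed cells for 7, and the median was 0.11. Of 30 mitosis genes, Plk1 (-0.78) and Anln (-0.74) were under an unadjusted p of 0.05, both towards neurons. The mean was higher in neuron-primed cells for 23 and in glia-primed cells for 7, beside 48.6% of all genes higher in glia-primed cells. The median was -0.35 and, without neuron-primed replicate 1, -0.29.

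Yy1, a zinc finger transcription factor active in neural crest, lay at 9.18, 9.04, 8.97 and 9.58 in glia-primed and 8.35, 8.38, 8.78 and 8.41 in neuron-primed arrays. The groups did not overlap, the difference was 0.72 (SE 0.19, unadjusted p = 0.00225, adjusted p = 0.436), and without neuron-primed replicate 1 it was 0.67. Its other probe sets gave 0.11, 0.58 and 1.54. Of 23 Hox genes, which mark the axial level of crest cells, Hoxa9 and Hoxc8 had an unadjusted p under 0.05. Both were towards glia, against 2.85% of all genes in that direction. The list as a whole did not point that way. The mean was higher in neuron-primed cells for 14 members and in glia-primed cells for 9, beside 48.6% of all genes higher in glia-primed cells. Its median was -0.21, and -0.04 without neuron-primed replicate 1. Hoxa9 lay at 6.72 to 8.99 against 1.92, 4.97, 7.39 and 6.80, and Hoxc8 at 6.16 to 8.53 against 2.35, 5.18, 7.20 and 4.62. For both the lowest array was neuron-primed replicate 1, and the differences of 2.65 and 2.26 became 1.54 and 1.43 without it. A dimmer probe set of Hoxa9 gave -0.13.

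Lists of markers of other cell types had low mean levels, though single members were bright. The list mean of 11 blood cell genes was 2.27 to 2.70 in glia-primed and 2.28 to 3.80 in neuron-primed arrays, and that of 16 endothelial genes 2.59 to 3.02 and 2.41 to 3.15. The values for 16 macrophage genes were 2.57 to 2.96 and 2.67 to 2.82, and for 17 epithelial genes 2.85 to 3.26 and 2.96 to 3.65. For 13 melanocyte genes they were 2.99 to 3.51 and 2.81 to 3.33, for 14 cartilage and bone genes 3.10 to 3.29 and 3.27 to 3.56, for 17 skeletal muscle genes 3.02 to 3.08 and 2.95 to 3.33, and for 16 fibroblast genes 2.99 to 3.75 and 2.76 to 3.76. No member of these lists was called. The cartilage collagen gene Col2a1 was bright in both groups, at 9.60 to 11.08 in glia-primed and 9.84 to 11.10 in neuron-primed arrays. The epithelial keratin gene Krt18 lay at 3.88 to 6.81 and 4.65 to 8.85, and Laptm5, a lysosomal gene of blood cells and macrophages, at 4.32 to 8.46 and 3.96 to 7.59. The Laptm5 level rests on 1 probe set, of a kind that can match several transcripts. Its other probe sets had means of 1.70 to 2.63 over 16 arrays. Within the 8 compared arrays the embryonic globins stood out in 1, neuron-primed replicate 4, where Hbb-bh1 was 8.28 and Hba-x 7.45, against 2.45 to 3.10 and 2.15 to 2.50 in the other neuron-primed arrays. Outside the comparison, Hba-x was also 6.25 and 7.21 in unprimed arrays 2 and 3 and 6.59 and 6.13 in mesenchyme-primed arrays 1 and 2. The list mean of 19 neural tube genes was 5.77 in neuron-primed replicate 1 and 3.77 to 4.92 in the glia-primed arrays, beside 3.98 to 4.43 in the other neuron-primed arrays. Of this list, the neural progenitor genes Nes and Msi1 were bright in both groups, at 8.14 to 8.74 and 8.60 to 9.28 in glia-primed and 7.17 to 9.41 and 8.78 to 10.99 in neuron-primed arrays. Xist, the RNA of the inactive X chromosome, lay at 5.34, 2.61, 3.25 and 3.31 in glia-primed and 3.15, 10.39, 7.55 and 10.58 in neuron-primed arrays. It was highest in neuron-primed replicates 2 to 4. Its difference of -4.29 had an adjusted p of 0.778. The Y-linked gene Eif2s3y lay at 6.87, 7.64, 6.85 and 6.80 in glia-primed and 6.36, 4.36, 7.48 and 4.48 in neuron-primed arrays. Of 2 other Y-linked genes, Uty lay at 2.71 to 3.65 and 1.03 to 5.13, and Kdm5d at 6.07 to 7.87 and 6.16 to 8.10. With the Xist level as a covariate, chosen after seeing the data, Mef2c gave 4.10 and Vat1l -3.08, both called at an adjusted p of 0.0178. The part of Xist-expressing cells, or of a differing mix of male and female cells, in the other values was not tested.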

How the data were processed

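RNA was labelled as biotinylated cRNA with a one-cycle Affymetrix kit, per the labels' protocols. The deposited table holds 1 linear intensity per probe set and array, made by the authors with RMA, per the submitters' processing notes. RMA equalises the arrays' distributions, so differences are relative to the whole array. The log2 of each deposited intensity was taken with no offset. Scanner files were not used here, so signal over background is unknown. Precision is limited by how many arrays there are.

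Of 45101 probe sets, 34958 carried 1 gene symbol in the platform annotation, 932 several and 9211 none there. Symbols were updated by Entrez identifier (99.4% matched), and each gene kept the probe set of highest mean over 16 arrays. The log2 values of all 16 arrays entered 1 limma fit with a mean per group (lmFit and eBayes, limma 3.58.1, R 4.3.3). Tests were two-sided, with Benjamini-Hochberg adjustment over all genes and calls at an adjusted p under 0.05. Unless called unadjusted, p-values are these. Alternatives changed the arrays fitted, scaling, probe set choice, low-value treatment, test and covariates.

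Named genes are the called ones, the lowest p in each direction among genes with non-overlapping arrays, a difference of at least 1 and a higher group mean of at least 6, the same without neuron-primed replicate 1, members of each list by p or mean level, the largest gaps of that replicate, and Yy1, Sox10 and Xist. List members under an unadjusted p of 0.05 outside this rule were picked with their values in view. The rule gives 184 genes, of which the text reports part. The comparison and the lists were chosen with earlier results of these data known. On simulated data with 50 changed genes per size, the fit called 5 at 2-fold, 32 at 4-fold, 37 at 8-fold and 44 at 16-fold, with 8 false among 126 calls. The noise was normal and independent, no array stood apart, and the 200 changed genes lay above the median level. So many changes loosen the Benjamini-Hochberg threshold, beside 2 calls in the real data. The simulated shares may therefore be too high for the real comparison.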

Additional observations from a re-analysis of the deposited data

Results flagged for a closer look

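In each group of 4 arrays, the gap between the highest or lowest array and its neighbour was divided by the group's range, and a share above Dixon's critical value for 4 arrays marked an array far from the others. Chance marks about 1 in 20 groups. Of 200 groups tested, 21 were marked, against 10 by chance, and 10 of the marks fell on neuron-primed replicate 1.

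That replicate was far below its group for Sox10 (0.950), Tfap2b (0.910), Zfp36 (0.912), Rapgef3 (0.886), Fgd5 (0.870), Ccdc86 (0.862) and Col3a1 (0.841), and far above it for Msi1 (0.915), Miat (0.837) and Notch1 (0.833). Several of these genes were named for their gap, so their marks are no separate evidence. Neuron-primed replicate 4 was far above its group for Hba-x (0.934) and Hbb-bh1 (0.889). Neuron-primed replicate 2 was far above it for Fosl1 (0.930), and replicate 3 was above it for Yy1 (0.846) and below it for Lcmt1 (0.860).

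Among glia-primed arrays, replicate 1 was far above the others for Gli1 (0.897), a target of hedgehog signalling, at 8.75 against 2.62 to 3.25. It was below them for Ncam1 (0.852). Replicate 2 was below them for Dip2a (0.850) and above for Gas7 (0.845), replicate 3 was below for Hspb1 (0.897), and replicate 4 was above for Zfp469 (0.921).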

How the results depend on the processing

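Under 22 alternative settings, 84 of the 100 genes named kept the sign of their difference. Mef2c and Vat1l kept their sign in all of them and lost their call only in the fits of the 8 compared arrays and of the 7 left without neuron-primed replicate 1, each with 0 genes called. In the 8 arrays 869 genes, and in the 7 arrays 1018, had an unadjusted p under 0.05. Leaving out 1 array at a time gave 2 to 7 called genes, with 5 without glia-primed replicate 1, 7 without neuron-primed replicate 1 and 4 without neuron-primed replicate 2. Genes called there and not described above were Fam189a1 (-4.09, without neuron-primed replicate 2), 2310030G06Rik (2.27, without replicate 3) and Prr14 (-2.60, without replicate 4), named after their values were seen. Adding 16 before taking log2 gave 3 calls, the third being Heatr5a (-1.0).

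With the replicate number as a block, 2 genes were called, the same 2, with adjusted p of 0.00242 for Mef2c and 0.0111 for Vat1l. Deviations of equally numbered glia-primed and neuron-primed arrays correlated at 0.056, 0.064, -0.008 and 0.048, so the numbers are not shown to pair the samples.

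Signs that turned belonged to uncalled differences. Leaving out 1 array at a time gave -0.60 to 0.72 for Sox10, -0.96 to 0.65 for Fabp7, -0.85 to 1.02 for Zfp36, -0.61 to 1.33 for Fgd5, -0.41 to 1.36 for Ccdc86 and -0.08 to 2.19 for Hacd1. The turned sign of each came without neuron-primed replicate 1, with the same value in the 7 remaining arrays. Msi1 ran from -0.67 to 0.07, with the turned sign likewise. Nes ran from -0.55 to 0.20, turning without glia-primed replicate 4, neuron-primed replicate 2 or neuron-primed replicate 3, and gave 0.53 with Xist as a covariate, and Laptm5 ran from -0.03 (without glia-primed replicate 4) to 1.45. Sox11 ran from -0.02 (without neuron-primed replicate 2) to 0.34, and Hbb-bh1 from -1.85 to 0.10 (without replicate 4). Without probe sets that can match several transcripts, Rdh10 (0.90), Ncam1 (0.15), Fgfr1 (0.44), Adm (0.23), Rapgef3 (0.09) and Ccdc86 (-0.37) turned, since a dimmer probe set then stood for the gene. With the mean of all probe sets Sox11 (-0.21) and Ncam1 (0.06) turned. Otherwise the cause was not tested.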
